A study of Mus musculus with 6 samples.

Results

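The genes described here are 39 genes of DNA replication and nucleotide synthesis, given as a list of symbols and read from a table of 28368 mouse genes. They cover origin licensing, the replicative helicase, the sliding clamp and its loader, polymerases, fragment joining, deoxynucleotide synthesis, chromatin assembly and the transcription factor E2f1. All 39 were found, each under 1 symbol, and all passed the filter on low counts that left 18049 genes for testing. Polyadenylated RNA of mouse tumours was sequenced in 6 libraries. In 3 of them the mice had received MS-DF-MS therapy over 12 h (treated), and in the other 3 they had received nothing (control). The title of the series speaks of implanted depots holding a pair of drugs, a STING agonist released first and an inducer of apoptosis released later. The labels name no drug, tumour type, mouse strain or age. No group received an empty depot, so the drugs and the implant cannot be told apart.

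Replication starts at origins, where the origin recognition complex with Cdc6 and Cdt1 loads the MCM helicase in G1 phase. At entry into S phase, Cdc45 and the GINS complex turn the loaded helicase into an active motor, and polymerases held by the PCNA clamp copy the strands. Most of these genes are transcribed from late G1 into S phase under E2F factors, so their mRNAs are commonly used as a readout of dividing cells, which in a tumour are mostly tumour cells.

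Replication mRNAs were mostly lower in treated than in control tumours, and by a small amount. The fitted change was below 0 in 37 of 39 genes, against 50.6% of all genes tested. The 39 genes were chosen with earlier results of these data known, so comparisons with all genes are a description. These genes also moved together between control libraries, with control 1 the lowest control in 37 of 39, so they do not count as independent. The median log2 fold change, treated over control, was -0.21, or 13.6% lower, against -0.003 over all genes tested. Tk1 (thymidine kinase, 23.3% lower) and Chaf1b (a subunit of the histone chaperone CAF-1, 26.9% lower) were called lower. Their Benjamini-Hochberg adjusted p was below 0.05 in the quasi-likelihood test of edgeR. These were 2 of 39 genes, where 0.249% of all genes tested were called lower. With 1 library left out in turn, Tk1 kept its call in 1 fit and Chaf1b in 2. None of the 39 was called higher, with 0 higher at an unadjusted p under 0.05. Of the 18049 genes tested 2891 had such a p, and 1245 of those were lower. EdgeR called 1.36% of all genes tested higher. The 3 treated libraries lay wholly below the 3 controls in 20 of the 39 genes and wholly above them in 0, against 11.2% and 12% of all genes tested. Among the 9700 genes with a mean of at least 10 CPM (the count scaled to the library's effective total), a set that holds all 39, the share wholly below was 14.3%. An unadjusted p under 0.05 with a lower level was found in 20 of the 39, against 6.9% of all genes. The DESeq2 Wald test called 10 of the 39 lower and 0 higher, where it called 2.03% of all genes lower and 4.18% higher. Limma-voom called 2 lower and 0 higher, against 0.244% and 1.21% of all genes. With sample quality weights it called 5 lower and 0 higher, against 1.06% and 3.33%. The same shares over all genes tested apply to the counts by role and by list below. Since these are whole tumours, fewer dividing cells and less RNA per cell cannot be told apart.

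**Figure D1:**
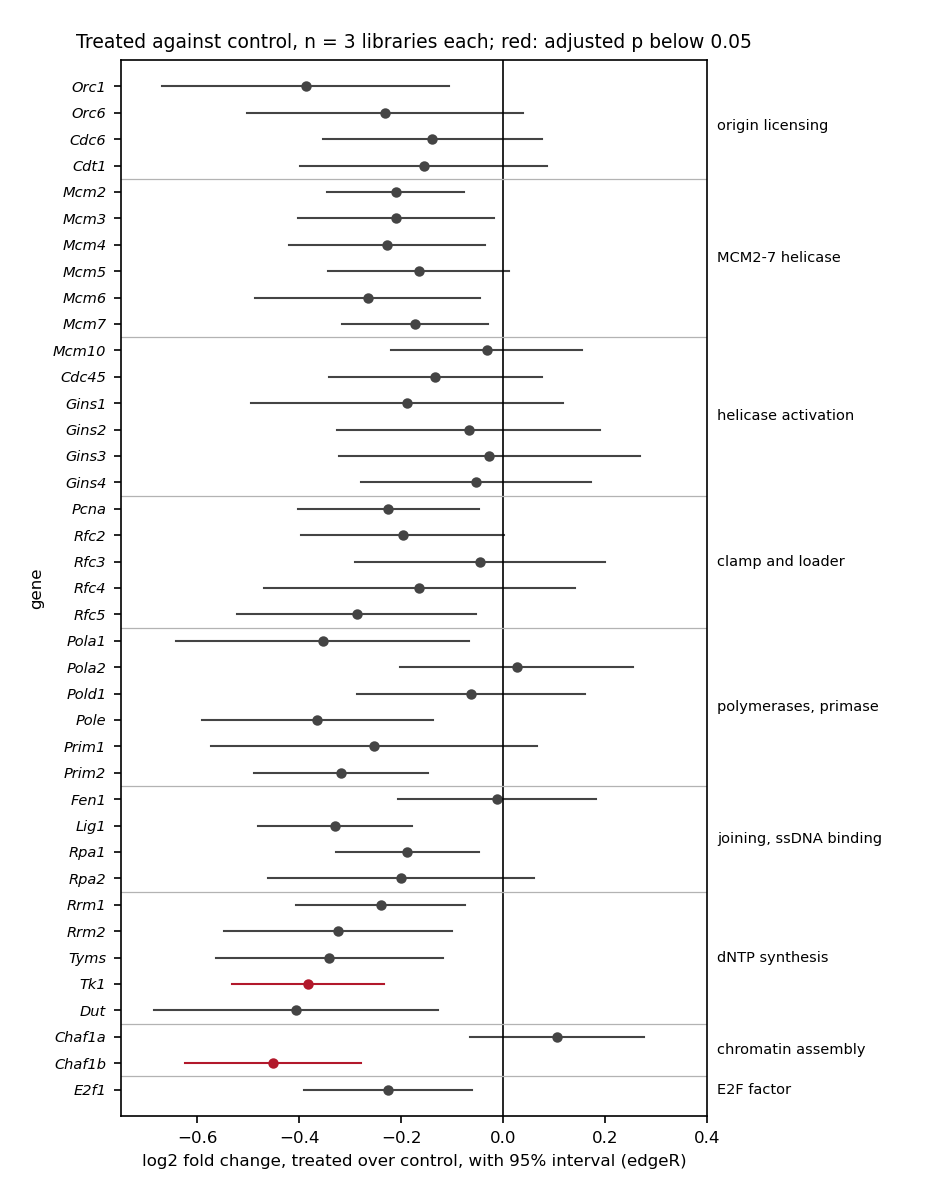
Each point is the log2 fold change of 1 gene, treated over control (x axis), with its 95% interval from edgeR, and genes are grouped by role (y axis). Points lie below 0 in 37 of 39 genes, and the genes in red, Tk1 and Chaf1b, passed the adjusted threshold.

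Libraries held 57017043 to 66634551 counts. On the first principal component of log2 CPM treated 3 stood apart, at 72.9 against -37.9 to 13.3 for the other 5. Without it the median was -0.19 and 34 of 39 genes were below 0. Nothing in the labels ties a library to its own animal, and p-values here rest on the spread between libraries, which may be technical. For the counting, the sources used here name no aligner, build or strand setting. Exons of 13 of the 39 genes overlap an exon of a gene on the opposite strand in the GENCODE M21 annotation (GRCm38), and without the strand setting such reads cannot be assigned with certainty. The deposited spans of 34 of the 39 genes are identical to that annotation.

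The 39 genes took 0.429%, 0.41% and 0.409% of all counts in treated 1, 2 and 3. They took 0.449%, 0.491% and 0.529% in controls 1, 2 and 3. The groups did not overlap, and control 1 was nearest to the treated libraries. Taking log2 of each CPM over the mean of the controls, the median over the genes reached -0.17, -0.24 and -0.26 in treated 1, 2 and 3. It was -0.14, 0.003 and 0.11 in controls 1, 2 and 3. Control 1 was the lowest of the 3 controls in 37 of the 39 genes, against 35.7% of all genes tested, and control 3 was the highest in 31, against 37.3%. Control 3 was also the library with the fewest counts, and the part of depth in this was not tested. With control 3 left out the median was -0.14 and 33 of 39 genes were below 0. With control 1 left out it was -0.26 and 38 of 39 were below 0. The treated libraries lay closer together: the coefficient of variation was smaller in the treated group in 31 of 39 genes, with a median of 5.14% against 8.83% in controls. Of the 9700 genes with a mean of at least 10 CPM, 39.4% had the smaller coefficient in the treated group.

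**Figure D2:**
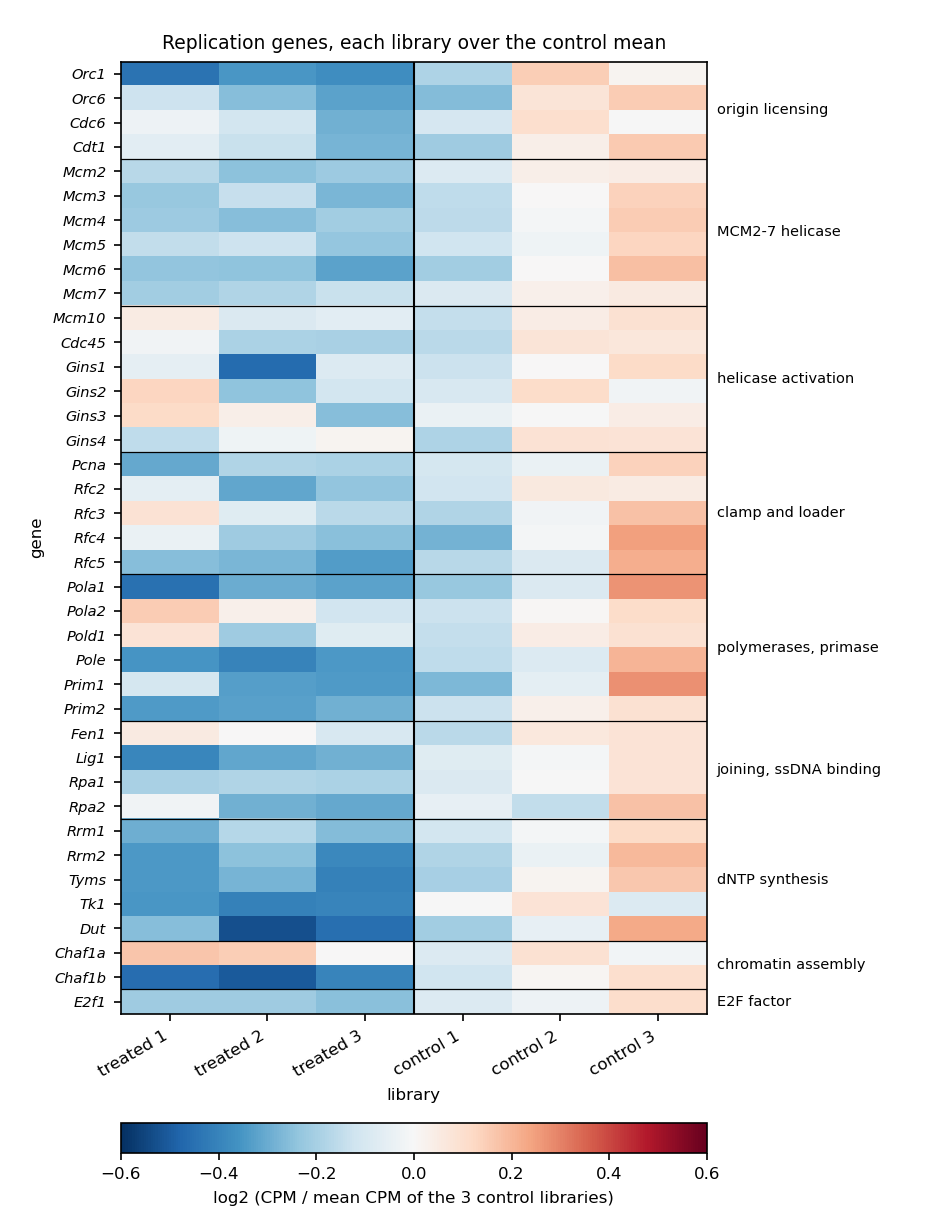
Colour gives log2 of the CPM in 1 library (columns) over the mean of the 3 controls, for each of the 39 genes (rows, grouped by role). Blue cells fill most of the treated columns, control 1 is paler blue, and control 3 is mostly red. Chaf1a, Pola2 and several helicase activation genes do not follow the blue treated pattern.

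Promoter windows are shown because E2F factors bind near the start of many of these genes. Whether E2F factors had a part in the lower mRNA levels was not tested. RefSeq windows (GRCm38.p6) of 300 bases, from 250 before to 50 after the annotated start, were matched by symbol for 32 of the 39 genes. Mcm4, Gins1, Gins2, Gins4, Rfc2, Pole and Prim2 had none in the table used here. The start used lay 539 bases from the deposited 5' end of the gene in Mcm7, 466 in E2f1, 350 in Cdc6, 325 in Dut and 224 in Fen1. It lay nearer in the other genes. Windows far from the deposited 5' end may not cover the start in use in these tumours. The 4 octamers searched on both strands were TTTCCCGC, TTTCGCGC, TTTGCCGC and TTTGGCGC, which spell out the usual E2F consensus. At least 1 occurred in 11 of 32 windows (34.4%), against 3.8% of the 11960 windows of genes tested. The genes were Orc1, Cdc6, Cdt1, Mcm3, Mcm5, Mcm6, Mcm7, Gins3, Rfc3, Pola1 and Pold1. The CCAAT box, on either strand, occurred in 19 of 32 (59.4%), against 38.7%. Of 16 windows of mitosis genes 1 held an octamer (6.25%) and 15 a CCAAT box (93.8%). Below are the windows of Mcm6 and Mcm5, which hold overlapping octamers on both strands. Those of Tk1 and Chaf1b, the genes called lower by edgeR, follow and hold none. Capitals mark the octamers. Mcm6 lies on chr1:128359656-128359955 (minus strand), Mcm5 on chr8:75109259-75109558 (plus), Tk1 on chr11:117825965-117826264 (minus) and Chaf1b on chr16:93883651-93883950 (plus).
Mcm6: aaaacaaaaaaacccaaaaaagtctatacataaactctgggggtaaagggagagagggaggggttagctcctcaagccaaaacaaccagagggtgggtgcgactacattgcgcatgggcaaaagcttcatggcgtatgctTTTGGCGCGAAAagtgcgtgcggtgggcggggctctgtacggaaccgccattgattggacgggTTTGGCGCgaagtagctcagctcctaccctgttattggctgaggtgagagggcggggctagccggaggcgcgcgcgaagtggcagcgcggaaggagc
Mcm5: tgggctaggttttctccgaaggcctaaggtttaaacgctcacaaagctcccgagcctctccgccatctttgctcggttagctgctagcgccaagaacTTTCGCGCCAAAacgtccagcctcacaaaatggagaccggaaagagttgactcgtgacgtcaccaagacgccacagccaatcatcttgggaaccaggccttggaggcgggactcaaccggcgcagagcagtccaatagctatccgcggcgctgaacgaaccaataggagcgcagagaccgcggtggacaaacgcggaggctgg
Tk1: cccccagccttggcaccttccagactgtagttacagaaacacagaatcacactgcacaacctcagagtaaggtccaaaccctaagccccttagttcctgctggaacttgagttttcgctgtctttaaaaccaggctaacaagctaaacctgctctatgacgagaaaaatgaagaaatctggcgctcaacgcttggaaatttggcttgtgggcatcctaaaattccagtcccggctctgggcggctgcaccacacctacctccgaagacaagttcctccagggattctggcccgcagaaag
Chaf1b: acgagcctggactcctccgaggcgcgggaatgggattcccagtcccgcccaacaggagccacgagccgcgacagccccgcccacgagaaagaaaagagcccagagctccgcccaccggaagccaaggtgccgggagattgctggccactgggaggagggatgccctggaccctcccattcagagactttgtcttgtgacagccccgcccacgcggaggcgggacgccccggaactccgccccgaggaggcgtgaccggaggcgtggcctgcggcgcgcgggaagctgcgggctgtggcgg
In Mcm6 the octamers begin 110, 106 and 47 bases before the start, and in Mcm5 153 and 149 bases before it. A match is a description of letters and shows no binding, and a window without one says only that these letters are not in it. The 11 genes with an octamer had a median log2 fold change of -0.17 (from -0.39 to -0.03) and the 21 without one -0.23 (from -0.45 to 0.11). The ranges overlapped.

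Deoxynucleotide synthesis showed the lowest median log2 fold change of the roles, -0.34, and in all 5 of its genes the groups did not overlap. Over all genes tested, 11.2% lay wholly lower in treated libraries. Tk1 rescues thymidine for DNA synthesis and lies on chromosome 11 from 117815526 to 117826092 (ENSMUSG00000025574). It stood at 97.5, 93.7 and 94.2 CPM in treated 1, 2 and 3 and at 123.9, 131.1 and 117.1 CPM in controls 1, 2 and 3. Every treated library was below every control. The means were 95.1 ± 2.08 and 124.1 ± 7.00 CPM (SD, n = 3), a log2 fold change of -0.38 ± 0.06 SE (edgeR adjusted p = 0.0303). Left-out libraries changed this call: it held without treated 1 (edgeR adjusted p = 0.0446) and was lost without any other library, where the adjusted p reached 0.198. Afmid, whose exons overlap Tk1 on the opposite strand, had means of 8.96 ± 1.57 CPM (treated) and 10.5 ± 0.405 CPM (control; SD, n = 3).

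Dut, the enzyme that breaks down dUTP so that uracil stays out of DNA, stood at 80.4, 66.7 and 70.1 CPM in treated and 83.1, 92.6 and 112.2 CPM in control libraries. The log2 fold change was -0.41 ± 0.12 (edgeR adjusted p = 0.165), larger than that of Tk1 but with more spread, and treated 1 lay close to control 1. Rrm1, the large subunit of ribonucleotide reductase, which makes deoxynucleotides from ribonucleotides, stood at 320.8, 348.3 and 327.8 CPM in treated and 363.4, 389.5 and 424.4 CPM in control libraries. The highest treated library was below the lowest control. Its log2 fold change was -0.24 ± 0.07 (edgeR adjusted p = 0.167), and that of Rrm2, the small subunit made in S phase, was -0.32 ± 0.10 (0.167). Tyms, which makes thymidylate from deoxyuridylate, had -0.34 ± 0.10 (0.147). DESeq2 called all 5 of these genes lower, where it called 2.03% of all genes tested lower.

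Of the 2 chromatin assembly genes, 1 was called lower, where edgeR called 0.249% of all genes tested lower. Chaf1b and Chaf1a encode subunits of CAF-1, which places new histones behind the fork. Chaf1b (ENSMUSG00000022945, chromosome 16 from 93883901 to 93906115) stood at 66.2, 64.2 and 69.1 CPM in treated and 83.6, 91.7 and 97.5 CPM in control libraries. All treated libraries were lower than all controls. The means were 66.5 ± 2.48 and 90.9 ± 6.95 CPM (SD, n = 3), a log2 fold change of -0.45 ± 0.07, the lowest of the 39 (edgeR adjusted p = 0.0286). The call held without treated 3 and without control 1 and was lost without each of the other 4 libraries in turn, where the edgeR adjusted p reached 0.169.

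Chaf1a stood at 140.5, 138.5 and 125.3 CPM in treated and 118.3, 133.5 and 123.7 CPM in control libraries. Those ranges overlapped, and the log2 fold change of 0.11 (95% interval -0.06 to 0.28, edgeR adjusted p = 0.542) was the highest of the 39. The count of Chaf1b over that of Chaf1a was 0.471, 0.463 and 0.552 in treated and 0.707, 0.687 and 0.788 in control libraries. The ratio was lower in every treated library than in any control (two-sided exact permutation p = 0.1, the smallest that 3 against 3 libraries allow). This was 1 of 5 ratios within complexes or pairs of like enzymes, chosen after the values were seen. Its Benjamini-Hochberg adjusted p was 0.167. Chaf1b and Chaf1a had the lowest and the highest change of the 39, so a lower ratio was built into the choice. The test therefore adds no support. Part of the Chaf1a exons overlap Ubxn6 on the opposite strand, with means of 43.7 CPM (treated) and 44.9 CPM (control).

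**Figure D3:**
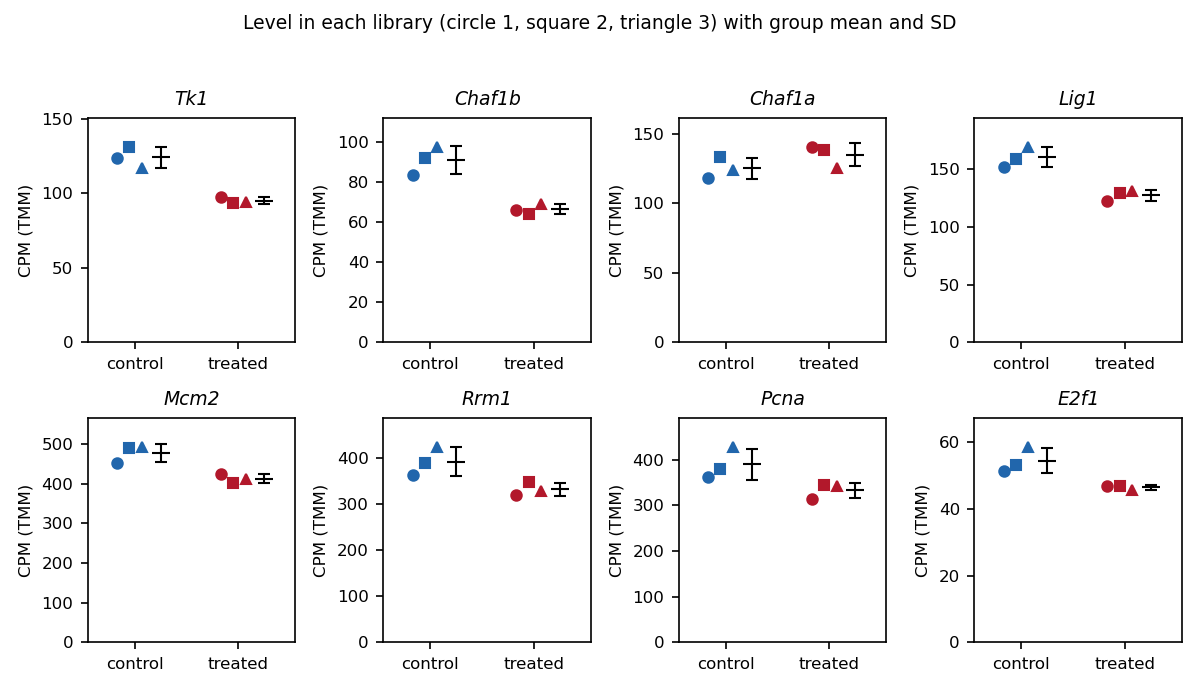
Each panel gives the CPM of 1 gene (y axis from 0) in the 3 control and 3 treated libraries, with the replicate number as the symbol and the group mean and SD as the black bar. Tk1, Chaf1b, Lig1, Mcm2, Rrm1, Pcna and E2f1 are lower in each treated library than in any control, and Chaf1a overlaps.

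The subunits of the MCM helicase, the ring that unwinds DNA at the fork, had log2 fold changes close to each other, none of them called by edgeR. They ran from -0.27 (Mcm6) to -0.17 (Mcm5), and the groups did not overlap in 5 of the 6, all but Mcm3. Over all genes tested, 11.2% lay wholly lower in treated libraries. Mcm2 was the most abundant in CPM, at 425.2, 402.1 and 410.7 in treated and 451.1, 488.9 and 492.6 in control libraries. Its treated libraries were all lower, with a log2 fold change of -0.21 ± 0.06 SE (edgeR adjusted p = 0.14). Mcm6 stood at 276.8, 276.1 and 260.8 CPM in treated and 282.3, 326.8 and 369.3 CPM in control libraries. Control 1 lay just above the treated libraries, and controls 2 and 3 lay further off (log2 fold change -0.27 ± 0.10, 0.234). Mcm3 (-0.21 ± 0.08, edgeR adjusted p = 0.273), Mcm4 (-0.23 ± 0.08, 0.239) and Mcm7 (-0.17 ± 0.06, 0.232) were of like size. With edgeR 0 of 6 were called, with 5 lower at an unadjusted p under 0.05, against 6.9% of all genes tested. DESeq2 called 1, Mcm2, where it called 2.03% of all genes lower. Limma-voom called 0, and with sample quality weights 1, Mcm2, against 1.06%.

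Origin recognition and licensing genes were lower in the fit in 4 of 4 cases, with less agreement between libraries. Orc1, the large subunit of the origin recognition complex, stood at 11, 11.7 and 11.6 CPM in treated and 13.2, 16.6 and 15.1 CPM in control libraries. Its groups did not overlap, with a log2 fold change of -0.39 ± 0.12 SE (edgeR adjusted p = 0.185). Cdt1, which brings MCM to origins, stood at 66.9, 63.9 and 57.6 CPM in treated and 60.3, 71.7 and 77.9 CPM in control libraries. Its lowest control lay inside the treated range (log2 fold change -0.16 ± 0.10, edgeR adjusted p = 0.527). Orc6, the smallest subunit of the complex (-0.23 ± 0.12, edgeR adjusted p = 0.388), and the loading factor Cdc6 (-0.14 ± 0.09, 0.526) also overlapped. None was called by edgeR, DESeq2 or limma-voom. Of the 4, 1, Orc1, was lower at an unadjusted p under 0.05, against 6.9% of all genes tested.

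The genes that activate the helicase showed the smallest differences. Their 6 log2 fold changes ran from -0.19 to -0.03, with a median of -0.06, and the groups overlapped in all 6. Over all genes tested, 11.2% lay wholly lower and 12% wholly higher in treated libraries, so overlap was the usual case. Mcm10, which helps the assembled helicase start, stood at 71.7, 65.2 and 66.4 CPM in treated and 62.7, 71.4 and 73.9 CPM in control libraries. Treated 1 was higher than controls 1 and 2 (log2 fold change -0.03, 95% interval -0.22 to 0.15). Gins1, a subunit of the GINS complex, stood at 22.7, 17.1 and 22.2 CPM in treated and 21.5, 23.6 and 25.5 CPM in control libraries. Treated 2 alone was low (log2 fold change -0.19, 95% interval -0.49 to 0.12). Cdc45 had -0.13 and Gins2, Gins3 and Gins4 had -0.07, -0.03 and -0.05. None was called by edgeR, DESeq2 or limma-voom, with 0 at an unadjusted p under 0.05, where 6.9% of all genes tested were lower at that p. The intervals of Mcm10 and Gins1 include the median of the MCM genes, -0.21, and the difference between the groups of genes was not tested.

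The sliding clamp and clamp loader were led by Pcna, the ring that holds polymerases on DNA. Pcna stood at 314.9, 344.1 and 341.6 CPM in treated and 362.1, 379.0 and 428.4 CPM in control libraries. The treated libraries were all lower, with a log2 fold change of -0.22 ± 0.08 SE (edgeR adjusted p = 0.215). Rfc5, a small subunit of the loader that opens the ring, stood at 74.9, 73.9 and 70.9 CPM in treated and 79.7, 84.3 and 104.0 CPM in control libraries. Control 3 was far above the other controls (log2 fold change -0.29 ± 0.10, edgeR adjusted p = 0.227). Rfc2, Rfc4 and Rfc3, further loader subunits, overlapped between groups, with log2 fold changes of -0.20, -0.16 and -0.05. Of these 5 genes 0 were called by edgeR, DESeq2 or limma-voom, and 2 had an unadjusted p under 0.05. A processed copy, Pcna-ps2, had 248 to 337 counts a library, 1.33% of those of Pcna.

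Among the 6 polymerase and primase genes, none called by edgeR, log2 fold changes ran from -0.36 (Pole) to 0.03 (Pola2). Pole, the catalytic subunit of polymerase epsilon, which copies the leading strand, stood at 45.8, 44.4 and 46.1 CPM in treated and 52.7, 55.3 and 67.5 CPM in control libraries. The treated values lay close together and below every control (log2 fold change -0.36 ± 0.10, edgeR adjusted p = 0.131). Pold1, the catalytic subunit of polymerase delta, which works mainly on the lagging strand, stood at 74.2, 60.4 and 66.5 CPM in treated and 63.4, 72.2 and 74.5 CPM in control libraries, which overlapped. Its log2 fold change was -0.06 (95% interval -0.29 to 0.16). The count of Pole over that of Pold1 was 0.617, 0.735 and 0.693 in treated and 0.831, 0.766 and 0.906 in control libraries, lower in all treated ones. The two-sided exact permutation p was 0.1, the smallest possible, and 0.167 adjusted over the 5 ratios. This pair was also chosen after the values were seen, so the test adds no support.

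Polymerase alpha with primase makes the primers from which both strands are extended. Pola1, its catalytic subunit, had a log2 fold change of -0.35 ± 0.12 SE (edgeR adjusted p = 0.226), with no overlap. Pola2, its accessory subunit, had 0.03 (95% interval -0.20 to 0.26), the only gene beside Chaf1a above 0. The count of Pola1 over that of Pola2 was 1.44 ± 0.196 in treated and 1.85 ± 0.191 in control libraries (SD, n = 3), with no overlap (exact permutation p = 0.1, adjusted 0.167). This pair, too, was chosen after the values were seen, so the test adds no support. Of the primase subunits, Prim2 had -0.32 ± 0.07 (edgeR adjusted p = 0.0921) with no overlap, and the catalytic Prim1 had -0.25 ± 0.14 (0.425) with overlap. The ratio of Prim2 to Prim1 overlapped between groups (exact permutation p = 0.5), as did that of Rrm2 to Rrm1 (exact permutation p = 0.2). Of these 6 genes 3 were lower at an unadjusted p under 0.05, against 6.9% of all genes tested. DESeq2 called Pole and Prim2, where it called 2.03% of all genes lower. Limma-voom called 0, and with sample quality weights 1, Prim2, against 1.06%.

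Of the 4 genes of fragment joining and single-strand binding edgeR called 0, with 2 lower at an unadjusted p under 0.05. DESeq2 called 1, Lig1, and limma-voom 0. Over all genes tested 6.9% were lower at that unadjusted p, and DESeq2 called 2.03% lower. Lig1, the ligase that seals Okazaki fragments, stood at 122.1, 129.1 and 131.0 CPM in treated and 152.3, 159.0 and 169.3 CPM in control libraries. The groups were well apart, and the log2 fold change of -0.33 ± 0.07 missed the threshold narrowly (edgeR adjusted p = 0.056). It passed with upper-quartile scaling (0.0389), under a stricter filter (0.0472), with DESeq2 (0.00047) and with voom quality weights (0.0199). It did not pass with limma-voom (0.0569), DESeq2 size factors (0.0574), no filter (0.0988), the replicate block (0.132) or any library left out (0.0835 to 0.265). Exons of Lig1 overlap Zswim9 on the opposite strand, with means of 12.2 CPM (treated) and 8.61 CPM (control). Rpa1, the large subunit of the protein that coats single-stranded DNA, stood at 252.3, 255.4 and 253.8 CPM in treated and 272.6, 288.9 and 305.8 CPM in control libraries. The treated libraries were nearly equal and all lower (log2 fold change -0.19 ± 0.06, edgeR adjusted p = 0.191). Rpa2, its middle subunit, had -0.20 ± 0.11 (edgeR adjusted p = 0.439). Fen1, the nuclease that trims fragment ends before ligation, had -0.01 (95% interval -0.21 to 0.18), with overlap.

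E2f1, an E2F factor that activates genes of this kind, stood at 46.8, 46.9 and 45.6 CPM in treated and 51.2, 53.1 and 58.5 CPM in control libraries. All treated libraries were lower, by 14.5% in the fit (log2 fold change -0.23 ± 0.07, edgeR adjusted p = 0.185). The change in E2f1 mRNA was thus close to the median of the 39 genes. Its mRNA level does not measure the activity of the protein, which is set largely by binding to the retinoblastoma protein.

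Levels between genes were compared per transcript length, in the deposited FPKM. Pcna was the highest of the 39, at 144.1 ± 12.8 FPKM in control and 122.6 ± 5.14 FPKM in treated tumours (SD, n = 3), followed by Rrm2 at 116.8 ± 15.5 and 92.8 ± 3.41 FPKM. In the controls Pcna and Rrm2 had ranges that came close without meeting, from 133.9 to 158.4 and from 103.2 to 133.6 FPKM. Subunits of the MCM helicase, which enter the ring in equal number, ran from 34.0 (Mcm4) to 62.0 FPKM (Mcm6) in control tumours, and the 3 highest, Mcm6, Mcm2 and Mcm3, were within their spread of each other. The lowest were Pola2 at 3.53 ± 0.296 and Orc1 at 3.81 ± 0.437 FPKM in controls, with ranges over the 3 libraries that overlapped. Genes read in the same libraries were compared here by such ranges and not within each library. Orc1 near the bottom of this order and Rrm2 near the top had log2 fold changes of -0.39 and -0.32.

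**Figure D4:**
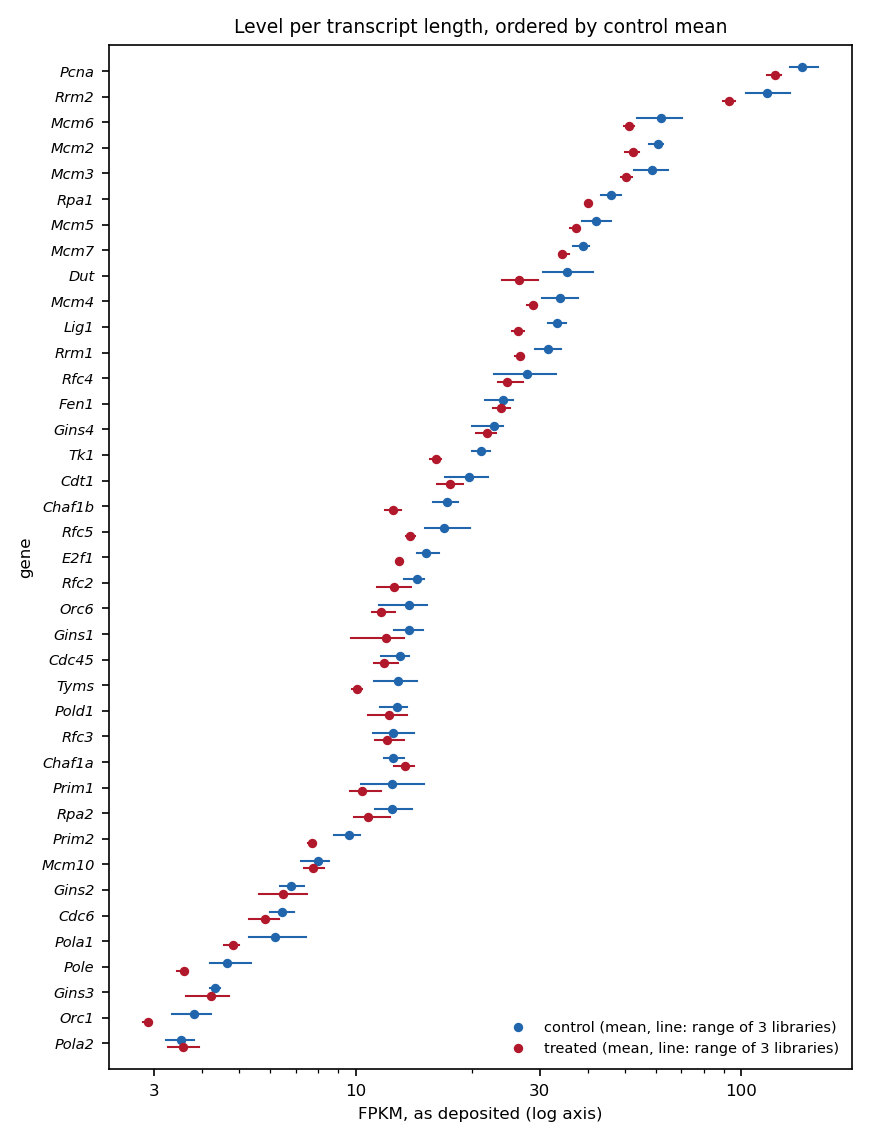
Points are mean FPKM of 3 libraries on a log axis (x) and lines their range, for each of the 39 genes (y, ordered by the control mean), in blue for control and red for treated tumours. Pcna and Rrm2 stand above the rest, and the red points lie to the left of the blue ones in all genes but Chaf1a and Pola2.

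Outside the 39, a list of 72 other replication genes was counted with the same fit. Of these 2 were called lower, among them Ccne1, and 0 higher, and the median log2 fold change was -0.13, with 58 below 0. Over all genes tested 0.249% were called lower and 1.36% higher, and 50.6% were below 0. Ccne1, the cyclin that drives entry into S phase, stood at 40.4, 39.5 and 38.3 CPM in treated and 48.2, 56.4 and 57.5 CPM in control libraries, without overlap (log2 fold change -0.45 ± 0.08, edgeR adjusted p = 0.0427). With 1 library left out in turn, Ccne1 kept its call only without control 1 (edgeR adjusted p = 0.0351), and the adjusted p reached 0.239. Of the 72, 2 had an unadjusted p under 0.05 as higher, and DESeq2 called 1 higher, limma-voom 0. Of the 18049 genes tested 2891 had such an unadjusted p, and 1245 of those were lower. DESeq2 called 4.18% of all genes tested higher and limma-voom 1.21%.

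Among the 21 genes of nucleotide supply and turnover in that list, 1 was called lower by edgeR, against 0.249% of all genes tested. Paics, a purine synthesis enzyme and the most abundant of them in CPM, stood at 242.8 ± 9.18 in treated and 274.0 ± 20.6 CPM in control libraries (SD, n = 3; log2 fold change -0.17 ± 0.07, edgeR adjusted p = 0.285). Ppat, the first committed enzyme of purine synthesis, had -0.36 ± 0.08 (edgeR adjusted p = 0.0938). Samhd1, which breaks down deoxynucleotides and is known as an interferon-inducible gene, went the other way and is named after its value was seen. It stood at 138.5, 124.8 and 89.0 CPM in treated and 59.1, 64.1 and 84.5 CPM in control libraries, with no overlap but with treated 3 close to control 3. Its log2 fold change was 0.76 ± 0.18 (edgeR adjusted p = 0.102), and it passed without treated 3 (0.0273).

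In the 17 genes of origins, licensing control and firing, the edgeR count was 0, with 5 lower at an unadjusted p under 0.05, 1 by DESeq2 and 0 by limma-voom. Over all genes tested the shares of these 4 counts were 0.249%, 6.9%, 2.03% and 0.244%, here and for the lists that follow. Dbf4, the activator of the kinase that fires origins, had -0.32 ± 0.10 (edgeR adjusted p = 0.175), and Topbp1, the most abundant of them, 0.004 ± 0.06 (0.987). In the 10 further polymerase, loader and processing genes the edgeR count was also 0, with 4, 0 and 0 by the same 3 further counts. Rfc1, the large subunit of the clamp loader, had -0.22 ± 0.08 (edgeR adjusted p = 0.217), and Pole4 -0.06 ± 0.06 (0.694). In the 8 genes of chromatin and maintenance the edgeR count was 0, with 3, 1 and 0. Limma-voom with sample quality weights called 1 of these 8, Uhrf1, against 1.06% of all genes tested. Uhrf1, which brings the maintenance methyltransferase to new DNA, had -0.24 ± 0.07 (edgeR adjusted p = 0.141), and that enzyme, Dnmt1, -0.07 ± 0.07 (0.696). In the 16 E2F and G1/S regulators 1 was lower, Ccne1. Ccna2, the cyclin of S and G2 phase, had -0.29 ± 0.08 (edgeR adjusted p = 0.147) and Cdk2, the kinase both cyclins activate, -0.16 ± 0.09 (0.418).

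Mitosis genes were slightly lower as well. Of 20 such genes 18 were below 0 in the fit, with a median log2 fold change of -0.16. Their groups did not overlap in 9, all lower. Over all genes tested 50.6% were below 0 and 11.2% lay wholly lower. Ccnb1, the mitotic cyclin, stood at 147.3 ± 7.29 in treated and 171.6 ± 9.20 CPM in control libraries (SD, n = 3; log2 fold change -0.22 ± 0.07, edgeR adjusted p = 0.176). Top2a, which untangles chromosomes, stood at 475.8 ± 22.1 and 540.8 ± 62.6 CPM (-0.18 ± 0.09, edgeR adjusted p = 0.353), with overlap. EdgeR, DESeq2 and limma-voom each called 0. At an unadjusted p under 0.05, 6 were lower, against 6.9% of all genes tested. Whether replication and mitosis genes differ in the size of their change was not tested.

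**Figure D5:**
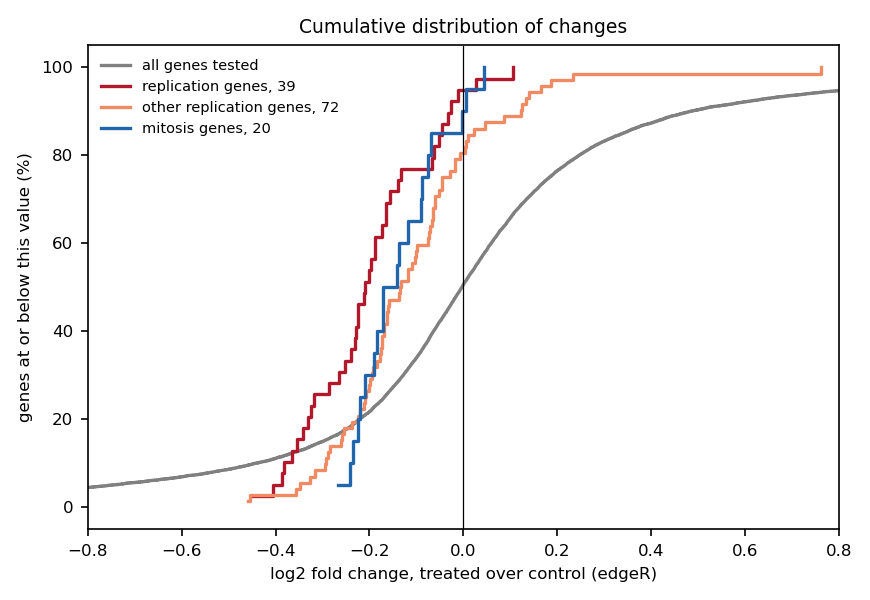
Lines give the share of genes (y axis, percent) with a log2 fold change at or below the value on the x axis, which shows -0.8 to 0.8, for all genes tested, the 39 replication genes, 72 other replication genes and 20 mitosis genes. The replication curve crosses its middle at -0.21 and the lowest of its genes lies at -0.45.

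Markers of the cells in these tumours were set beside the 39 genes. The 7 pigment cell markers, abundant in every library, summed to 21636 to 23502 CPM in treated and 21010 to 23200 CPM in control libraries. EdgeR called 0 of them, and 1 was higher at an unadjusted p under 0.05. Of the 18049 genes tested 2891 had such a p, and 1245 of those were lower. In 2 of the 7 the treated libraries lay wholly above the controls and in 0 wholly below, against 12% and 11.2% of all genes tested. The 5 endothelial markers summed to 100.6 to 113.9 CPM in treated and 50.5 to 54.3 CPM in control libraries. EdgeR called 3 of them higher, against 1.36% of all genes tested. It called 0 markers, higher or lower, in each of the other lists given here. The 6 T cell markers summed to 1.46 to 5.08 CPM and 5.71 to 6.70 CPM, with Cd3e at 0 in at least 1 library. The 5 neutrophil markers summed to 4.22 to 49.2 CPM and 1.63 to 3.77 CPM, with Cxcr2 and Retnlg at 0 in at least 1 library, and the 5 red blood cell genes to 262.0 to 1471 CPM and 98.0 to 249.6 CPM. The 6 macrophage markers (45.7 to 152.0 and 87.8 to 116.9 CPM) and the 5 fibroblast markers (482.5 to 548.9 and 300.3 to 567.0 CPM) overlapped between groups, as did the 4 muscle genes (0.843 to 84.7 and 16.9 to 43.7 CPM). The part of these shifts in the level of the replication genes was not tested.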

How the data were processed

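Polyadenylated RNA of 3 treated and 3 control mouse tumours was measured, with groups and replicate numbers taken from the library names in the labels. The authors deposited 1 table with raw counts and FPKM per gene and library, per the file headers. Of tools, fastp, StringTie and edgeR are listed per the submitters' processing notes, without versions. FPKM, as deposited, were used only to compare levels between genes; for 99.9% of 12046 genes their ratio to the count fitted 1 constant per gene and library within 1%. For 58 rows with a repeated symbol, the row with the highest mean count kept it.

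The main test was run with edgeR 4.0.16 under R 4.3.3 (filterByExpr, minimum count 10, minimum total 15; TMM; glmQLFit and glmQLFTest; two-sided; Benjamini-Hochberg over 18049 genes, threshold 0.05). Alternatives used limma 3.58.1 (limma-voom) and DESeq2 1.42.0. Each SE was derived by dividing the fitted change by the square root of F. CPM are scaled by TMM. Chi-square values per gene of 18.1 to 63.5 between libraries of a group left no pair within sampling noise.

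The 39 genes and all lists were chosen with earlier results of these data known. Values in every library are given for genes past the threshold, the most abundant gene and the one with the largest change in each role, and E2f1; of other lists, called genes, the most abundant and the one with the smallest p. Ratios, chosen after the values were seen, were tested by exact permutation over libraries. Values of 1 called gene outside the 39 and of 1 marker list are not reported here.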

Additional observations from a re-analysis of the deposited data

How the results depend on the processing

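The results were recomputed under 14 alternatives: other scalings, tools and filters, a replicate block, and each library left out in turn. The median log2 fold change of the 39 genes stayed between -0.26 and -0.14, and 33 to 38 of them were below 0. The number called lower was 2 with edgeR, 10 with DESeq2 and 5 with limma-voom and sample quality weights. It was 0 with no filter on low counts (28368 genes tested), where Tk1 (adjusted p = 0.0609) and Chaf1b (0.0545) missed the threshold, and 3 with upper-quartile scaling or a stricter filter (at least 50 counts in 3 libraries). With each library left out it ran from 0 to 1. No setting called any of the 39 higher. Of the 72 other replication genes, 2 were lower with edgeR, 6 with DESeq2, 4 with quality weights, 1 with limma-voom, 1 with no filter and 0 to 1 with a library left out. DESeq2 and quality weights each called 1 higher, Samhd1, and leave-outs 0 to 1. Over all genes tested, edgeR called 45 lower and 246 higher, DESeq2 367 and 754, quality weights 191 and 601, no filter 10 and 164, the replicate block 14 and 123, and leave-outs 3 to 39 and 94 to 308.

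With the replicate number as a block, 0 of the 39 and 0 of the 72 were called lower (Tk1 adjusted p = 0.114, Chaf1b 0.0828). Whether the numbers pair the libraries is not known. Deviations of same-numbered libraries from their group means correlated at 0.09, -0.16 and -0.11, and those of the other pairs at -0.15 to 0.24. With 3 libraries a group such values cannot exclude pairing. Of the 39 genes 32 kept their sign in every setting. With a library left out, small uncalled log2 fold changes turned sign in Mcm10 (from -0.093 to 0.021), Gins2 (-0.174 to 0.018), Gins3 (-0.102 to 0.075), Rfc3 (-0.12 to 0.058), Pola2 (-0.038 to 0.093), Pold1 (-0.141 to 0.012) and Fen1 (-0.079 to 0.037). The cause was not tested in any of these.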
